A study of Mus musculus with 17 samples.

Results

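The variable promoters of protein-coding genes were the promoter regions where open chromatin was found in some kidneys of the study and not in others. A member was a merged region with a summit in 5 to 12 of the 17 mice whose midpoint lay within 1 kb of a protein-coding transcription start. Openness was measured by ATAC-seq, in which a transposase inserts sequencing adapters into accessible DNA, and a summit is the base at which that signal peaks within an open stretch. There were 2679 such regions among 116556 merged regions of the whole series, and among 16733 promoter regions of any frequency. They were chosen by the number of mice with a summit, so that number is a description and carries no test. How it was divided among the groups was not used in the choice. Without the group where they were common, however, some members would have had fewer than 5 lists. Their p-values, and shares that count them, are a description. Each region is named for the gene with the closest start, and the 2679 regions belonged to 2554 genes.

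Whole kidneys of 17 male mice, 8 weeks old at the start, were used, with 20000 cells per library. The Ctrl group held 5 C57BL/6 mice, labelled wild type and normal, that were given saline. The Case group held 6 db/db mice (BKS.Cg-Dock7m +/+ Leprdb/J), which lack a working leptin receptor and become obese and diabetic, and these were also given saline. The Dapa group held 6 db/db mice given dapagliflozin by gavage at 1 mg/kg/day for 6 weeks, an inhibitor of the sodium-glucose cotransporter SGLT2. Ctrl and db/db mice differed in leptin receptor genotype, diabetes and background strain together, and these cannot be told apart here. In a whole kidney, fewer cells of a type and less open chromatin per cell cannot be told apart either.

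A promoter is the stretch around a transcription start where general transcription factors and RNA polymerase II assemble, and it is usually cleared of nucleosomes when the gene can be transcribed. Promoters of genes that every cell needs are mostly rich in CpG dinucleotides and open in all tissues, whereas promoters of genes used by a single cell type are more often poor in CpG and open only there. The kidney holds many cell types, from filtering podocytes to the transporting cells of the proximal tubule and collecting duct, so a promoter open in few cells gives a weak peak in the whole organ.

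To show what such regions look like, stretches of the regions that stood first in each direction of the 4 comparisons described further on are printed 5′ to 3′ on the strand of the gene, from the RefSeq genome GRCm38.p6 (mm10). Stretches were placed outside annotated untranslated exons. Capitals mark matches on either strand to the motifs searched. Those found here were the GC box of SP and KLF factors, spelled GGGCGG, and the box of the factor NF-Y, spelled CCAAT. The TATA box was searched as TATAAA and the E-box of helix-loop-helix factors as CACGTG. The core site of nuclear receptors such as HNF4 was searched as AAGGTCA. Gm10642 (chr9:70656041-70656250, plus strand), Ift22 (chr5:136907849-136908148, plus) and Ddo (chr10:40629314-40629613, plus) stretches lay upstream of the start. Srp72 (chr5:76974724-76975023, plus), Crybg2 (chr4:134078769-134079068, plus) and Rad51ap2 (chr12:11455882-11456181, plus) stretches reached into the gene, and that of Slc10a3 (chrX:74373350-74373626, minus) ended just before its start.
Gm10642: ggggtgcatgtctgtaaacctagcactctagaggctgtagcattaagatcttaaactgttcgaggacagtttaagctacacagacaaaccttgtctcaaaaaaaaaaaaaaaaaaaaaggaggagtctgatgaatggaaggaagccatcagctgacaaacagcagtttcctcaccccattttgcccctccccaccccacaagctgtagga
Ift22: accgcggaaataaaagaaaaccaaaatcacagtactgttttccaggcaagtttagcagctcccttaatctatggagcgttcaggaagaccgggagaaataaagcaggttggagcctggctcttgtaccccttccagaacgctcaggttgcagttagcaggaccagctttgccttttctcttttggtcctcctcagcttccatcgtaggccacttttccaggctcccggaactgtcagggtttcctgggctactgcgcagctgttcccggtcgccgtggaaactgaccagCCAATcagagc
Ddo: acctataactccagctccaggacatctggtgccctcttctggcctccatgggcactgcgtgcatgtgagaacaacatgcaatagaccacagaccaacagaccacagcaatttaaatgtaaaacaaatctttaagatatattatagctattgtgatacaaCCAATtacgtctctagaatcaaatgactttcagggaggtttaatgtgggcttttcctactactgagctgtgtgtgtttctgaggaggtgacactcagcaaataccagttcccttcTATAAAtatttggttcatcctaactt
Srp72: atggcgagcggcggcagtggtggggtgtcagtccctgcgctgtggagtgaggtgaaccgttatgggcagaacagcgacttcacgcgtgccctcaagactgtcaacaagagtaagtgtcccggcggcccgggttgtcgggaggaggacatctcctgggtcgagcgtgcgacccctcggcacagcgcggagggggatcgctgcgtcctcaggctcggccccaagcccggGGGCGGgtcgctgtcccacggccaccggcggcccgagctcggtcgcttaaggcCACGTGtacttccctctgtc
Crybg2: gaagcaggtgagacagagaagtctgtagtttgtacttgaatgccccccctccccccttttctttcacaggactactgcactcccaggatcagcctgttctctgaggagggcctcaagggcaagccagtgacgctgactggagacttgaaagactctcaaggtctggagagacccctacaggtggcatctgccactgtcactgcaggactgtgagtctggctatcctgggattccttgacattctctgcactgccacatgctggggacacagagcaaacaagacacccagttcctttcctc
Slc10a3: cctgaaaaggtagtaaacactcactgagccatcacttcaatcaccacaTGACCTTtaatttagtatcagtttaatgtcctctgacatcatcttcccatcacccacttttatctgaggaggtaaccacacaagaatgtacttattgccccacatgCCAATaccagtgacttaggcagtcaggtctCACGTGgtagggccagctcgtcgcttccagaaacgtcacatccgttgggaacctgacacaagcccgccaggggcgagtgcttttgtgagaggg
Rad51ap2: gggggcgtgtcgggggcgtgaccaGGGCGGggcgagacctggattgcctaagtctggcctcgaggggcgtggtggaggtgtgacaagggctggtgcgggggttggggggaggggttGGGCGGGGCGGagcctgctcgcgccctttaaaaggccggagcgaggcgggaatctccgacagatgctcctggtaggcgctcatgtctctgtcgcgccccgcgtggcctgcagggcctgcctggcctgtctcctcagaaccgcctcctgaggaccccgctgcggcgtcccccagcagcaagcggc
The Rad51ap2 stretch held 26 CpG dinucleotides and 3 GC boxes, 2 of them sharing a base, and the Srp72 stretch held 31 CpG dinucleotides. The Crybg2 and Gm10642 stretches held 1 CpG dinucleotide each and none of the motifs searched. The Slc10a3 match to AAGGTCA lay on the other strand, so it reads TGACCTT in the printed line.

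The files gave summit positions with a score and no reads, so sequencing depth is unknown. Lists held 29702 summits (Case 4) to 56659 (Ctrl 2), and the 29702 highest-scoring summits of each were used. The score of the last summit used ran from 2.01 to 5.53, so scores are on the scale of their own list and are given below as a description, without comparison between mice. A summit that ranked lower than those used is called below use. Case 3 and Dapa 8 stood apart in leukocyte genes: 6 and 4 of 15 such genes had a promoter summit in these mice, against 0 to 2 in each of the others.

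Ctrl kidneys had summits in more of the variable promoters than either db/db group. Among Ctrl mice 63.3% ± 3.66 (SD, n = 5) of the members had a summit, among Case mice 43.2% ± 9.56 (SD, n = 6) and among Dapa mice 47.4% ± 6.84 (SD, n = 6). The Ctrl values ran from 57.9% to 67.7%, the Case values from 34.5% to 57.6% and the Dapa values from 38.8% to 53.9%. Every Ctrl mouse thus lay above every db/db mouse, although the lowest Ctrl and the highest Case mouse were close, and the db/db groups overlapped. The mean differences were −20.1 percentage points for Case minus Ctrl, −15.8 for Dapa minus Ctrl and 4.27 for Dapa minus Case. In the complete lists, which include summits ranked below those used, the means were 77.4%, 50.1% and 57.0%, and the Ctrl range of 69.9% to 84.2% overlapped the Case range of 34.9% to 78.0% through Case 5. The size of the gap depended on how many summits were used: with the 14851 highest-scoring summits of each list it was −4.81 for Case minus Ctrl −4.48 for Dapa minus Ctrl and 0.330 for Dapa minus Case, and with all summits −27.3, −20.3 and 6.94. Dapa minus Case was 1.75 without Case 3 and Dapa 8, and 2.54 to 7.16 when 1 mouse was left out at a time.

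Values for regions of other frequency are given beside these as a description, since the number of lists used in the choice bounds the gap that is possible. Promoter regions in 13 to 16 lists had a summit on average in 95.5% of regions in the Ctrl group, 82.0% in the Case group and 87.4% in the Dapa group, and those in 2 to 4 lists in 17.6%, 15.9% and 14.7%. Regions of 5 to 12 lists away from protein-coding starts gave 53.8%, 40.5% and 46.3%. All regions of at least 2 lists gave 51.2%, 45.1% and 47.6%.

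The share of members also moved with the length of the deposited list, whose part in the difference was not tested. The 5 shortest lists (Case 2, 3 and 4 and Dapa 9 and 10, with 29702 to 33482 summits) were the 5 with the fewest members, from 925 to 1057. Among lists of like length, Ctrl 5 (37402 summits) had 1690 members, Case 6 (38302) had 1315 and Dapa 12 (38323) had 1270. Case 5, with 51292 summits, had 1544 members, fewer than any Ctrl mouse.

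**Figure D1:**
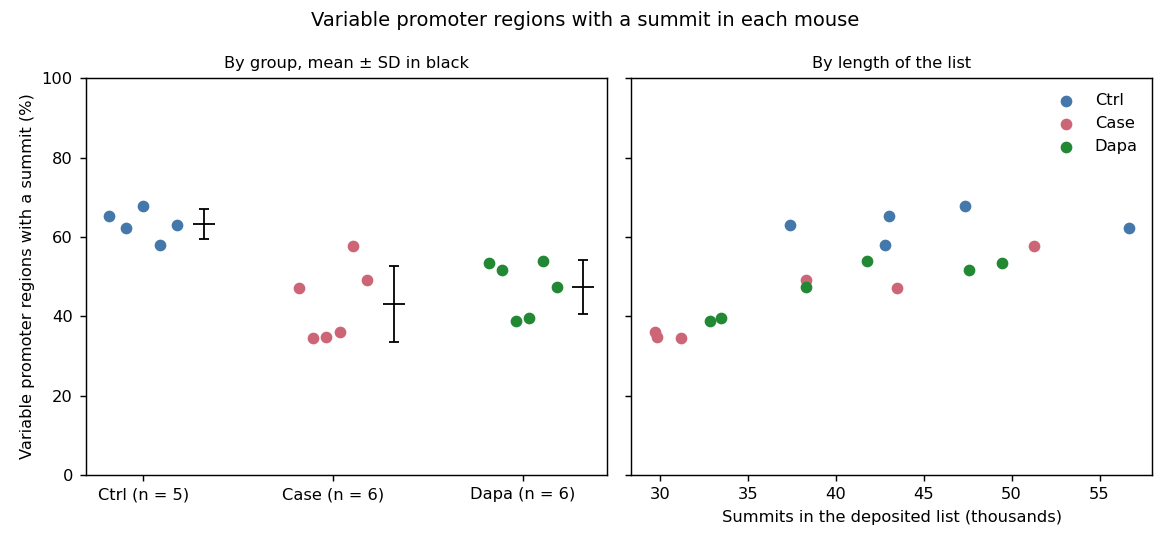
The percentage of the 2679 variable promoter regions with a summit is plotted for each mouse, by group on the left (black: mean ± SD) and against the number of summits in the deposited list on the right (axis in units of 1000). The Ctrl mice lie between 57.9% and 67.7%, above all Case and Dapa mice, and the 5 shortest lists lie lowest.

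Most members were variable within groups as well as between them. A total of 2382 members (88.9%) had a summit in at least 1 mouse of every group. In 533 members every Ctrl mouse had a summit, and in 101 no Ctrl mouse had one. The share of mice was higher in Ctrl than in both db/db groups for 1563 members (58.3%), lower than in both for 539 (20.1%) and in between or tied for 577 (21.5%). Of 22502 combinations of member and mouse without a used summit, 4547 had a summit lower in that mouse's complete list. The bounds of the choice were not natural gaps, since 337 promoter regions were in 5 lists and 429 in 4, and 383 were in 12 lists and 469 in 13. Likewise 104 members lay within the last 100 bp inside the limit of distance, and 75 regions of the same frequency within the first 100 bp outside it.

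Case was compared with Ctrl to ask which variable promoters differed in the diabetic kidney. Of 1896 members that could reach an unadjusted p under 0.05 by Fisher's exact test (2-sided, per region), 158 had a summit in fewer Case mice at that level and 7 in more. Among the 11420 regions of all kinds tested, 9.33% were lower and 0.876% higher, so the members' 8.33% and 0.369% were close to or below the background. With 14851 summits the counts were 78 lower and 1 higher, without Case 3 and Dapa 8 there were 28 higher, and without Case 5 there were 252 lower. With fewer mice the steps of the exact p and the regions that can be tested change by construction. The share over all regions was not computed in these settings, so the counts are not credited to the mice left out. With Benjamini-Hochberg adjustment over all regions tested, 0 members passed 0.05 by Fisher's exact test, and the smallest adjusted p was 0.133. The median difference in the share of mice was −26.7 percentage points over the members and −26.7 over the regions tested.

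Promoters seen in Ctrl and missed in Case included those of a ciliary and a cohesin gene. In 33 members every Ctrl mouse had a summit and no Case mouse did (exact p = 0.00216 and adjusted p = 0.133 each), which was 1.74% of the members tested beside 1.59% of all regions tested, and 18 of these had none in the complete Case lists. The region of Ift22, a subunit of the intraflagellar transport trains that build cilia (chr5:136907801-136908386, midpoint at −57 bp from the start), had scores of 10.6, 6.31, 11.5, 9.13 and 17.3 in Ctrl 1 to 5. In Dapa mice its scores were 7.73, 12.6, 10.7 and 6.02 in Dapa 7, 8, 11 and 12, and no Case list held a summit there at any rank. Ctrl and Case did not overlap for Ift22, whereas 4 of 6 Dapa mice were like Ctrl.

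Stag2, a subunit of the cohesin ring on the X chromosome (chrX:42151924-42152510, untranslated exon), had scores of 13.1, 9.02, 12.1, 5.97 and 14.3 in Ctrl 1 to 5. It had none in any Case list and 4.94, 10.9 and 6.67 in Dapa 7, 8 and 9. Csrnp3, a nuclear activator of transcription (chr2:65931667-65932256), had a summit in all 5 Ctrl mice with scores of 5.25 to 16.7, in no Case list and in 4 Dapa mice with scores of 4.94 to 6.74. These 3 regions shared a pattern of presence in Ctrl, absence in Case and presence in part of the Dapa mice. Another of the 33, singled out after its values had been seen, was Myb, a transcription factor of blood progenitors, with a summit in 1 Dapa mouse.

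The 7 members with more Case summits were Gm10642, Hoxb9, Sept14, Bhlha15, Tmcc3, Tagln2 and Lemd3, of which Tagln2 and Lemd3 were named after their values had been seen (exact p = 0.0152 and adjusted p = 0.149 each). Gm10642, a predicted gene (chr9:70656041-70656873), had used summits in all 6 Case mice with scores of 3.51 to 9.72 and a median of 5.39, in Ctrl 1 with a score of 6.20, and in 3 Dapa mice with scores of 7.16, 9.87 and 9.70. The other 4 Ctrl mice had summits ranked too low for use, with scores of 3.22 to 4.70. Gm10642 was therefore listed in all Ctrl mice, in 4 of them below use, and a region open in all 17 lists lies within 1 kb. Hoxb9, a homeobox factor of the trunk and limb (chr11:96271474-96272652, intron), was listed in no Ctrl mouse at any rank. Its Case scores were 4.98, 4.16, 7.96, 3.99, 6.11 and 3.46, the last below use, and its Dapa scores were 9.87 in Dapa 11 and 2.95, below use, in Dapa 10. Bhlha15, also known as Mist1, a factor of secretory cells (chr5:144189721-144190423, midpoint at −214 bp), had 5 Case mice with scores of 4.42 to 7.23, 2 Dapa mice at 4.30 and no used Ctrl summit. Its summits below use had scores of 3.79 in Ctrl 1, 3.26 in Ctrl 4, 3.15 in Dapa 7 and 2.91 in Dapa 11, and with all summits its difference no longer reached the unadjusted level. Without the Case mice, Gm10642, Hoxb9 and Bhlha15 would each have been below the lower bound of the choice. Their p-values are therefore a description.

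Dapa was compared with Case to ask which promoters differed with treatment within db/db mice. Of 1394 members that could be tested, 15 had a summit in more Dapa than Case mice at an unadjusted p under 0.05 and 3 in fewer. Over the 7176 regions tested the shares were 0.934% and 0.237%, and the members' shares of 1.08% and 0.215% were close to them. By Fisher's exact test 0 members passed adjustment, and the smallest adjusted p was 1.00. Treatment thus gave no member past the threshold, and the examples here are descriptions. With 14851 summits 0 members were past the unadjusted level in either direction, and without Case 3 and Dapa 8 there were 41 higher and 19 lower. Leaving out mice changes the steps of the exact p, and the share over all regions was not computed for these counts.

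Ddo and Gimap9 were the members with a summit in every Dapa and no Case mouse (exact p = 0.00216 and adjusted p = 1.00 each). These 2 were 0.143% of the members tested, beside 0.0557% (4 regions) of all regions tested. The Ddo region met the lower bound of the choice only through the Dapa mice. Its p-value and its part in this share are therefore a description and carry no test. Ddo encodes D-aspartate oxidase, a peroxisomal enzyme that breaks down D-aspartate and is abundant in kidney. Its region (chr10:40629041-40629614, midpoint at −684 bp from the start) had scores of 6.45, 8.91, 5.28, 4.73, 5.31 and 8.35 in Dapa 7 to 12, 8.04 in Ctrl 5 and, below use, 4.22 in Ctrl 1 and 3.15 in Case 6. A region open in all 17 lists lies within 1 kb of it. The Dapa mice did not overlap the Case mice for the Ddo member, and 4 of 5 Ctrl mice were without a used summit like Case. Gimap9, a GTPase of immune cells (chr6:48675687-48676721), had used summits in all Ctrl and Dapa mice, with scores of 4.14 to 8.85 and 4.13 to 8.26. Its Case summits, with scores of 3.74 in Case 1 and 4.88 in Case 5, ranked too low for use. With all summits the Gimap9 difference no longer reached the unadjusted level.

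Intu, a planar cell polarity protein needed for cilia (chr3:40540461-40541089), had a used summit in 5 Ctrl mice, no Case mouse and 5 Dapa mice (exact p = 0.0152, adjusted p = 1.00). Its scores were 9.70, 19.9, 19.4, 6.72 and 6.89 in Ctrl 1 to 5 and 4.31, 7.74, 3.75, 14.2 and 6.02 in Dapa 7, 8, 9, 11 and 12. Case 5 had an Intu summit below use, with a score of 4.88, so that with all summits the difference no longer reached the unadjusted level. Tmem248, a membrane protein (chr5:130222017-130222638), had used summits in 3 Ctrl, 0 Case and 5 Dapa mice at the same p, and summits below use in Case 1 and Case 5 with scores of 3.74 and 4.31. Its difference, too, no longer reached the unadjusted level with all summits. Among the rest of the 15, Ifi27, an interferon-induced protein, and Hpgd, which breaks down prostaglandins, had a summit in 1 Ctrl, 0 Case and 5 Dapa mice each, and were singled out after their values had been seen. A share of mice lower in Case than in Ctrl and higher again in Dapa, each by at least 50% of the mice, was seen in 117 members (4.37%). The opposite was seen in 23 (0.859%), with no test because Case enters both steps. These patterns were not counted over all regions. Over all regions of at least 2 lists the means of 51.2% in Ctrl, 45.1% in Case and 47.6% in Dapa were likewise lowest in Case. The 2 counts are therefore not read as an effect of treatment.

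The 3 members with fewer Dapa than Case summits were Srp72, Epb41l1 and Tmcc3 (exact p = 0.0152 and adjusted p = 1.00 each). Srp72, a subunit of the signal recognition particle that brings nascent secretory proteins to the endoplasmic reticulum (chr5:76974379-76975176), had scores of 6.40, 12.6, 13.3, 5.25 and 10.1 in Ctrl 1 to 5 and 6.31, 4.58, 4.58, 8.11 and 5.26 in Case 2 to 6. In Dapa mice it had scores of 3.15 in Dapa 8 and 4.03 in Dapa 11, both below use. With all summits the Srp72 difference no longer reached the unadjusted level. Epb41l1, a membrane skeleton protein (chr2:156474825-156476017), had used summits in 5 Ctrl and 5 Case mice and none in any Dapa list. Tmcc3 (chr10:94311386-94312349) was used in 5 Case mice alone, with scores of 3.41 to 4.98. It met the lower bound of the choice through that group alone, so its p-values against Dapa and Ctrl are a description and carry no test. Cfl1, the actin-severing protein cofilin, came next with 4 Ctrl, 5 Case and 1 Dapa mice and did not reach the unadjusted level (exact p = 0.0801), and it too has a region of 17 lists within 1 kb.

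Dapa was compared with Ctrl to ask how treated db/db kidneys stood against healthy ones. Of 1761 members, 97 had a summit in fewer Dapa mice and 14 in more at an unadjusted p under 0.05 by Fisher's exact test. Over 10873 regions tested, 6.80% were lower and 1.24% higher, against 5.51% and 0.795% of the members. After adjustment 0 members passed, with a smallest adjusted p of 0.174. With 14851 summits there were 50 lower and 1 higher, and without Dapa 8 there were 186 lower and 27 higher. Here too fewer mice change the steps of the exact p, and the share over all regions was not computed. Both the Case and the Dapa comparison use the same 5 Ctrl mice, so their counts are not independent.

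In 22 members every Ctrl mouse and no Dapa mouse had a used summit, which was 1.25% of the members tested beside 1.07% of all regions tested, and 9 of the 22 were on the X chromosome. Slc10a3, a member of the sodium and bile acid cotransporter family (chrX:74373051-74373626), had scores of 11.5, 7.97, 16.3, 8.30 and 11.8 in Ctrl 1 to 5, 10.3, 6.76 and 8.04 in Case 3, 5 and 6, and 4.66 and 4.10, both below use, in Dapa 11 and 12. Pdk3, a kinase that switches off pyruvate dehydrogenase (chrX:93831806-93832395), had Ctrl scores of 9.13 to 20.4 and a used summit in Case 3 alone of the db/db mice, at 2.88. Its summits below use had scores of 3.74 in Case 1, 4.88 in Case 5, and 4.31, 3.15 and 3.52 in Dapa 7, 8 and 12. For Slc10a3 and Pdk3 all Ctrl summits were used and all Dapa summits were missing or below use. Mlf1 (chr3:67373757-67374411) was used in 5 Ctrl, 2 Case and 0 Dapa mice. Mlf1 summits below use had scores of 3.15 in Dapa 7 and 4.03 in Dapa 11. Slc10a3, Pdk3 and Mlf1 each had exact p = 0.00216 and adjusted p = 0.174. With all summits their differences no longer reached the unadjusted level. Without the Ctrl mice each of them would have been below the lower bound of the choice, so these p-values are a description.

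The members with a summit in every Dapa and no Ctrl mouse were Crybg2 and Cox14 (exact p = 0.00216 and adjusted p = 0.174 each). These 2 were 0.114% of the members tested, beside 0.175% of all regions tested. Crybg2, a crystallin domain protein (chr4:134078601-134079196, coding exon), had scores of 6.26, 8.24, 6.67, 6.15, 5.33 and 6.71 in Dapa 7 to 12 and 11.2, 3.69, 8.05 and 7.16 in Case 1, 4, 5 and 6. A Ctrl summit in Ctrl 2, with a score of 5.48, was below use. Ctrl and Dapa thus did not overlap in the used lists and overlapped in the complete lists by that mouse. The region named for Cox14, a cytochrome c oxidase assembly factor (chr15:99724343-99725067), lay at −913 bp from that gene's start, in an untranslated exon of Gpd1, glycerol-3-phosphate dehydrogenase, and within 1 kb of a region open in all 17 lists. Its Dapa scores were 3.53 to 5.43, and 3 Ctrl mice had summits below use with scores of 2.90 to 4.14. Frmd8, a FERM domain protein (chr19:5875011-5875633), had used summits in 1 Ctrl, 5 Case and 6 Dapa mice (exact p = 0.0152, adjusted p = 0.188). Ctrl 1 and Ctrl 2 had Frmd8 summits below use, with scores of 4.17 and 4.37, and with all summits the difference no longer reached the unadjusted level.

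All 12 db/db mice were then compared with Ctrl, which used the most mice. Every one of the 2679 members could be tested, and 305 had a summit in fewer db/db mice and 33 in more at an unadjusted p under 0.05 by Fisher's exact test. Over 27359 regions of all kinds, 8.13% were lower and 1.19% higher, against 11.4% and 1.23% of the members. Other regions in 5 to 12 lists, away from protein-coding starts, gave 9.94% and 2.17%. By Fisher's exact test 0 members passed adjustment, with a smallest adjusted p of 0.0884. Leaving out any one of the Ctrl mice gave 126 to 149 lower and 5 to 11 higher members, and leaving out Case 5 gave 21 higher. Fewer mice again change the steps of the exact p. The median difference in the share of mice was −18.3 percentage points over the members and −5.0 over all regions tested.

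In 8 members every Ctrl mouse and no db/db mouse had a used summit (exact p = 0.000162 and adjusted p = 0.0884 each). That was 0.299% of the members beside 0.179% of all regions tested. Each of the 8 was in 5 lists, so it met the lower bound of the choice through the Ctrl mice alone. Their p-values and share are therefore a description and carry no test. The same holds where they count among the members above with every Ctrl mouse and no Case, or no Dapa, mouse. Among the 8 were Rad51ap2, Pex5l, B630019K06Rik, Mtmr7, Chrm3, Smim10l2a and Eid2. Chrm3 is a muscarinic acetylcholine receptor, and Eid2 inhibits the acetyltransferase EP300. In all 8 at least 1 db/db mouse had a summit below use, so none was without a summit in every db/db list.

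Rad51ap2 (chr12:11455597-11456182) had scores of 8.00, 7.97, 11.5, 9.98 and 11.8 in Ctrl 1 to 5 and 3.15 in Dapa 8. Its Ctrl and db/db mice did not overlap in use. Mtmr7, a phosphoinositide phosphatase (chr8:40634403-40635149), had scores of 9.70, 12.6, 17.3, 5.25 and 4.14 in Ctrl 1 to 5. Its single db/db summit, in Case 5 with a score of 4.31, was below use. Both regions were thus used in Ctrl alone, with 1 db/db mouse each listed below use. Pex5l, which binds pacemaker channels, had Ctrl scores of 6.54 to 13.6, and 3.76 and 3.15 in Case 5 and Dapa 7. B630019K06Rik (chrX:8892719-8893263, coding exon) had Ctrl scores of 6.72 to 12.6.

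The 33 members with more db/db summits were all autosomal. Slc38a3, a glutamine transporter of the proximal tubule that serves ammonia formation (chr9:107666886-107667708), had scores of 9.24, 3.60, 7.17 and 5.26 in Case 1, 4, 5 and 6 and 7.56, 6.24, 6.50, 4.66 and 8.11 in Dapa 7, 8, 9, 11 and 12 (exact p = 0.00905, adjusted p = 0.273). Ctrl 1 and Ctrl 2 had summits below use with scores of 4.23 and 3.38. Sept14, a septin (chr5:129703242-129703913, intron), had 5 Case mice with scores of 3.42 to 5.92, 5 Dapa mice with 4.43 to 10.7, and 2.71 below use in Ctrl 4 (exact p = 0.00339, adjusted p = 0.187). In both regions no Ctrl summit was among those used.

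Further members of the 33, singled out after their values had been seen, were Pink1, Hsd3b3, Ldha, Apoc3 and Acsf2. Pink1, the kinase that marks damaged mitochondria, was listed in no Ctrl mouse at any rank, in 4 Case mice with scores of 4.16 to 8.28 and in 3 Dapa mice with scores of 6.18 to 11.4 (exact p = 0.0441, adjusted p = 0.466). Hsd3b3, a steroid dehydrogenase with 1 near-identical copy, was likewise listed in no Ctrl mouse, and was used in 2 Case and 5 Dapa mice. Apoc3, an apolipoprotein of triglyceride-rich particles, and Acsf2, a mitochondrial acyl-CoA synthetase, were used in 1 Ctrl, 5 Case and 5 Dapa mice each. Ldha, lactate dehydrogenase A, depended on rank. It had no used Ctrl summit, but 4 of 5 Ctrl mice had a summit below use with scores of 3.09 to 5.01. Of the 33, only 4 had no Ctrl summit in the complete lists, and 5 had near-identical copies elsewhere in the genome, where reads can be misplaced.

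**Figure D2:**
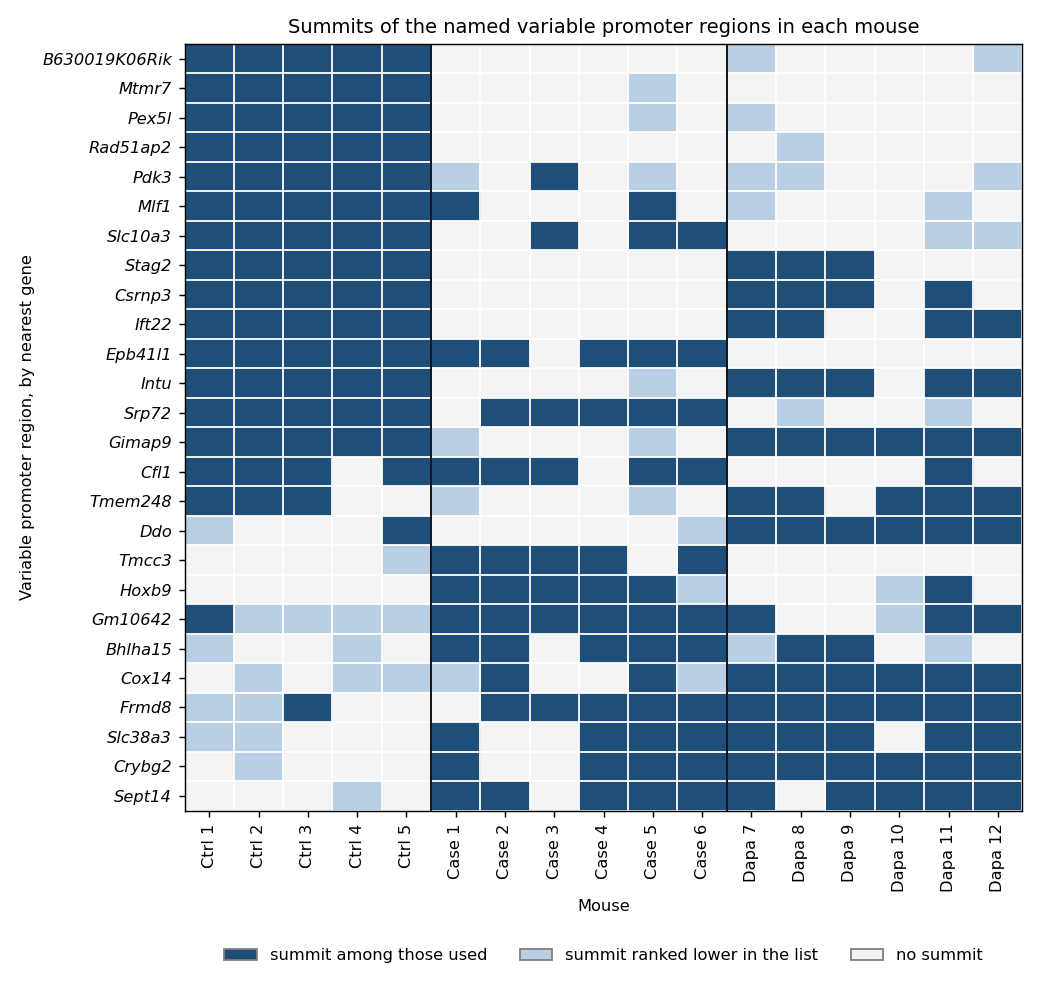
For each of the 26 members named by rule (lines of the grid, ordered by the share of Ctrl minus db/db mice) and each mouse (columns), dark blue is a summit among the 29702 used, light blue a summit lower in the complete list, and near white no summit. Ift22, Stag2 and Csrnp3 are dark in all 5 Ctrl mice and near white in all 6 Case mice, whereas Gm10642 is light blue in 4 Ctrl mice.

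X-linked promoters were looked at after the comparisons above had been made. The labels give all mice as male, and male cells carry 1 copy of the X and Y chromosomes. The X held 112 of the 2679 members (4.18%), 44 of the 5843 promoter regions in all 17 lists (0.753%) and 79 of the 3012 in 13 to 16 lists (2.62%). Of the 112 X members, 47 (42.0%) were lower in db/db at an unadjusted p under 0.05 and 0 higher, against 256 (9.98%) lower and 33 (1.29%) higher of 2565 autosomal members and 8.13% and 1.19% of all regions tested. By Fisher's exact test 0 of them passed adjustment.

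Ctrl mice had a summit in 89.3% ± 8.40 (SD, n = 5) of the X members, Case mice in 31.4% ± 10.8 (SD, n = 6) and Dapa mice in 38.7% ± 9.94 (SD, n = 6). The Ctrl values ran from 75.9% to 98.2%, the Case values from 18.8% to 48.2% and the Dapa values from 25.9% to 53.6%. Ctrl did not overlap the db/db groups, which overlapped each other. The 2567 members elsewhere gave 62.2%, 43.7% and 47.8%. In the complete lists the X members gave 92.5%, 37.4% and 48.5%, so summits of low rank did not fill the gap. Over all 850 X regions of at least 2 lists, promoters or not, the means were 52.4%, 36.1% and 35.7%, against 51.1%, 45.4% and 47.9% for 51343 autosomal regions.

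X members with fewer db/db summits included B630019K06Rik, Smim10l2a, Pdk3 and Stag2. Hcfc1, a chromatin cofactor of the cell cycle, was used in 5 Ctrl, 2 Case and 0 Dapa mice, and Hprt, the purine salvage enzyme often taken as a stable reference gene, in 5, 1 and 4 mice. The Hprt scores were 12.4 to 18.4 in Ctrl, 8.11 in Case 5 and 4.43 to 7.74 in Dapa mice. The Y-linked members gave a like picture: Ddx3y, an RNA helicase, had a summit in 4 Ctrl, 1 Case and 1 Dapa mice, and Eif2s3y, a translation factor, in 4, 0 and 1. Outside the members, the promoter of Uty on the Y, in 4 lists, had a summit in 4 Ctrl, 0 Case and 0 Dapa mice. The complete lists gave the same counts for Uty. Near Gm47283, annotated on the Y, 1 region was present in all 17 mice and another in 13 (4 Ctrl, 5 Case and 4 Dapa mice), and neither was a member. Hcfc1, Hprt and the Y-linked genes were singled out after their values had been seen. The X members differed by −54.2 percentage points between db/db and Ctrl, by −54.9 without Case 3 and Dapa 8, by −49.6 with all summits and by −35.7 with 14851 summits. The cause was not tested.

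**Figure D3:**
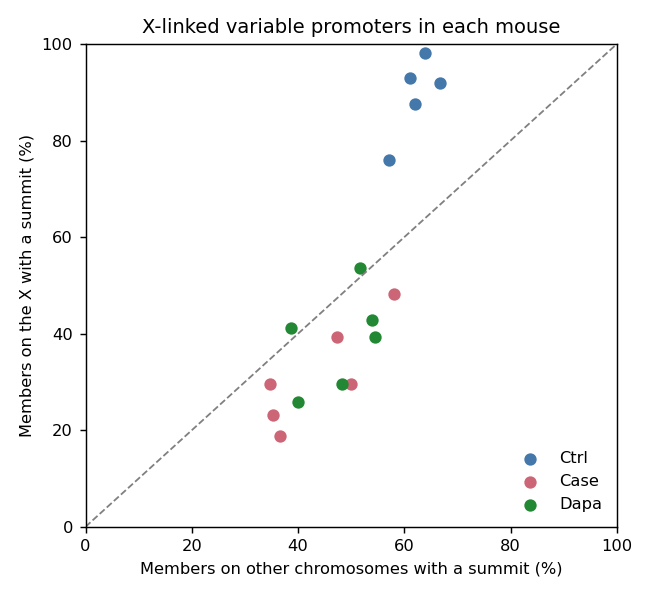
Each point is a mouse, with the percentage of the 2567 members on other chromosomes that have a summit on the x axis and the percentage of the 112 X members on the y axis. The dashed line marks equal percentages. All 5 Ctrl mice lie above the line, at 75.9% to 98.2% of the X members, and the db/db mice lie at 18.8% to 53.6%, with Dapa 8 and Dapa 9 just above it and the others below.

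In CpG content the members lay between promoters in all 17 lists and distal regions. The CpG observed/expected ratio, over 300 bases around the midpoint, had a median of 0.700 in members, 0.834 in promoters of 17 lists, 0.805 in those of 13 to 16 lists, 0.526 in those of 2 to 4 lists and 0.208 in distal regions of 5 to 12 lists. A ratio of at least 0.6, a common mark of a CpG island, was reached by 60.4% of members and 86.7% of promoters in 17 lists. The median GC content was 61.7% and 66.0%. Members lay a median of 107 bp from a start and constitutive promoters 85.0 bp. The median of the mean rank was 18629 for members and 5035 for promoters in 17 lists, which the choice of members by rank sets in part. A constitutive region lay within 1 kb of 9.15% of members, and 390 members (14.6%) belonged to a gene that had another promoter in all 17 lists.

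Motif letters were searched on both strands in the same 300 bases. The GC box GGGCGG was in 52.0% of members, 74.3% of promoters in 17 lists and 62.3% of all 13551 promoter regions of at least 2 lists. The NF-Y box CCAAT was in 27.2%, 39.6% and 32.6%, and the ETS core CCGGAAG in 11.8%, 18.4% and 15.0%. These 3 motifs were in fewer members than promoters of 17 lists, and CCAAT was in 30.5% of distal regions of 5 to 12 lists, above its share of members. TATAAA was in 5.67%, 2.89% and 3.95%, the AP-1 site TGANTCA in 5.79%, 3.00% and 4.35%, and the site GTTAATNAT of HNF1, a factor of tubule cells, in 1.23%, 0.377% and 0.731%. AAGGTCA was in 4.03%, 2.55% and 3.49%, and the interferon response letters GAAANNGAA in 6.16%, 4.33% and 5.16%. In distal regions of 5 to 12 lists the shares of these 5 were higher than in members, at 10.3% for TATAAA, 11.0% for TGANTCA, 4.15% for GTTAATNAT, 9.62% for AAGGTCA and 7.88% for GAAANNGAA. CACGTG was near equal, in 8.59%, 9.98% and 8.96%. A match of letters describes the sequence and is not a bound site.

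Members lower in db/db were richer in CpG than members higher in db/db. The median CpG ratio was 0.775 in the 305 lower members, 0.330 in the 33 higher members and 0.693 in the 2341 past neither. After this had been seen, the members were split by CpG ratio into 3 equal groups of 893, with limits at 0.522 and 0.822. In the CpG-poor group Ctrl, Case and Dapa mice had summits in 55.0%, 43.7% and 48.9% of the members, in the middle group 64.6%, 43.7% and 46.9%, and in the CpG-rich group 70.3%, 42.2% and 46.4%. The Case minus Ctrl difference was −11.3, −20.9 and −28.1 percentage points from poor to rich, and Dapa minus Ctrl was −6.05, −17.7 and −23.8. At the unadjusted level 70, 100 and 135 of 893 were lower in db/db and 24, 8 and 1 higher, beside 8.13% and 1.19% of all regions tested, and the same split outside the members was not made.

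All 5 Ctrl mice had more CpG-rich than CpG-poor members, for example Ctrl 4 with 49.4% of the poor and 64.7% of the rich. The db/db mice did not share 1 direction. Case 2 (32.1% and 37.1%), Case 3 (26.2% and 40.5%) and Dapa 8 (41.0% and 58.8%) also had more of the rich, Case 4 had 35.3% of both, and the remaining 8 had fewer, such as Case 5 (62.6% and 52.3%). Case 3 and Dapa 8 are the mice with the most leukocyte genes, whose part in this was not tested. The db/db minus Ctrl difference in the rich group, less that in the poor group, was −17.3 percentage points, −20.9 without Case 3 and Dapa 8, −13.5 with all summits and −11.1 with 14851 summits.

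**Figure D4:**
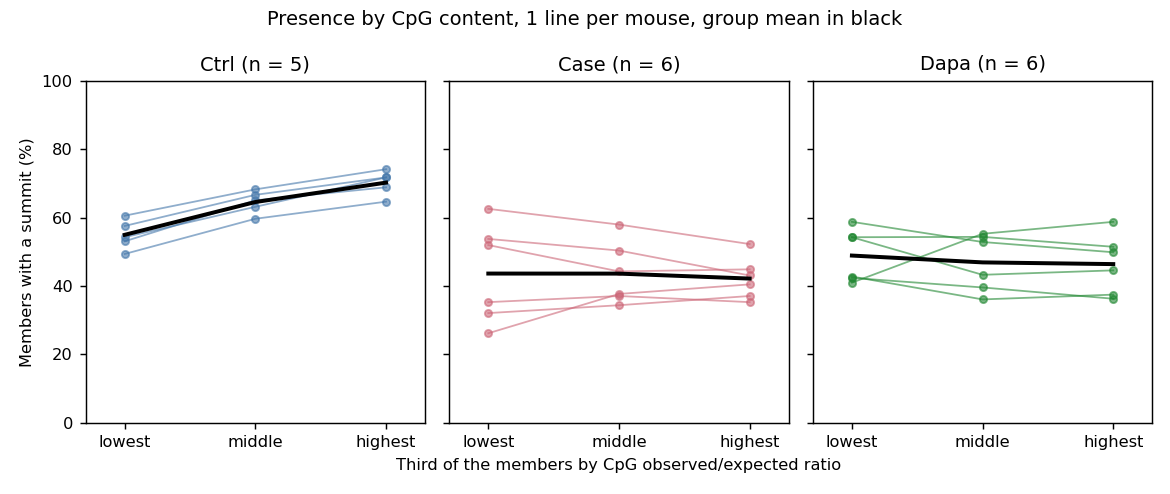
The percentage of members with a summit is drawn for the CpG-poor, middle and CpG-rich group of 893 members each (x axis), with 1 line per mouse and the group mean in black. The Ctrl mean climbs from 55.0% to 70.3%, while the Case mean goes from 43.7% to 42.2% and the Dapa mean from 48.9% to 46.4%.

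The share of genes with a variable promoter is given by gene family as a description. Over 21829 protein-coding genes, 11.7% had a variable promoter and 30.1% a promoter in all 17 lists. Among zinc finger genes named Zfp, Zscan or Zkscan, mostly repressors of transcription, 91 of 424 (21.5%) had a variable promoter. Solute carriers, the membrane transporters by which tubules reabsorb and secrete, had one in 79 of 385 genes (20.5%), glucuronosyl and glutathione transferases in 11 of 45 (24.4%), Wnt, Fgf and Bmp ligands in 12 of 52 (23.1%), integrins and laminins in 9 of 42 (21.4%) and Hox genes in 8 of 39 (20.5%). At the other end, cytoplasmic ribosomal proteins had 2 of 84 variable (2.38%) and 67.9% in all 17 lists, and olfactory receptors had 0 of 1133.

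**Figure D5:**
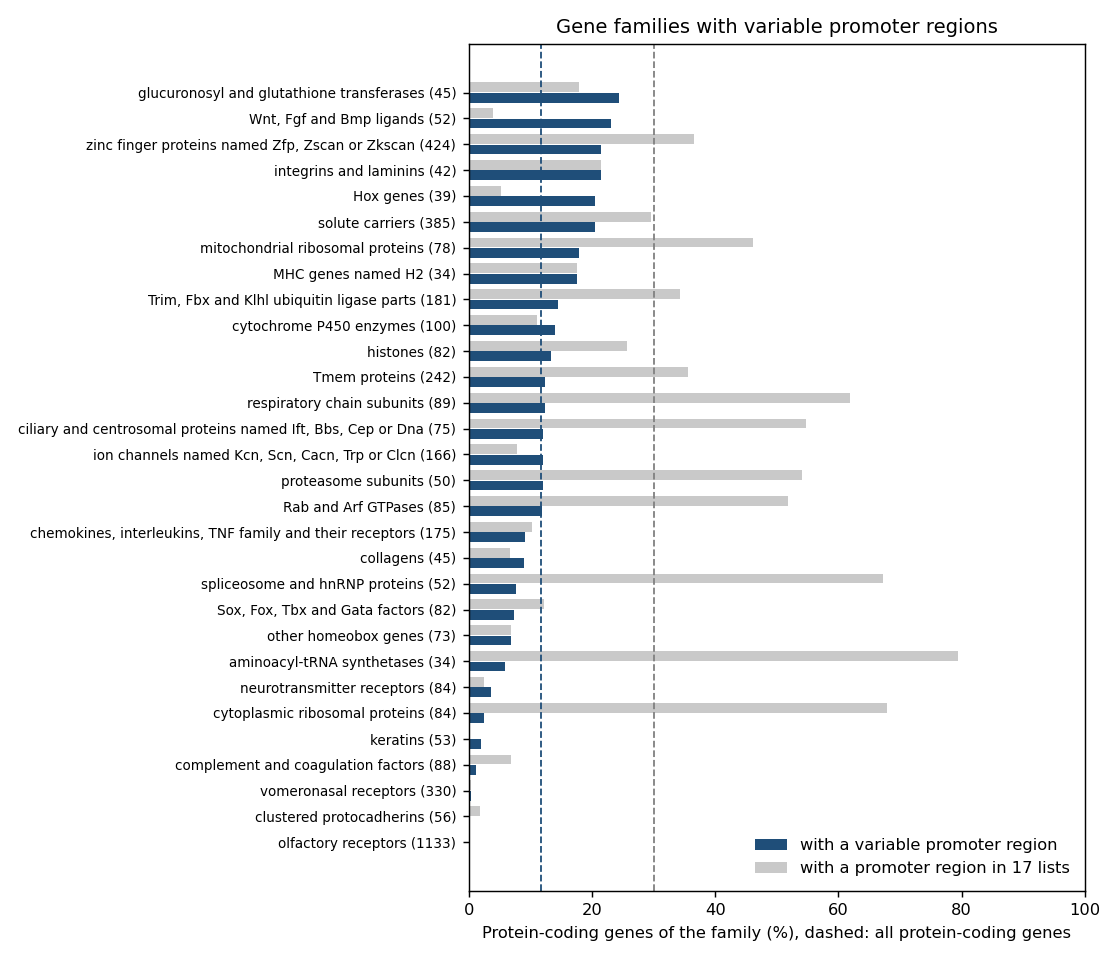
For each gene family (number of genes in brackets), the bars give the percentage of genes with a variable promoter region (blue) and with a promoter region in all 17 lists (grey), and the dashed lines give both over all 21829 protein-coding genes, 11.7% and 30.1%. Transferases, Wnt, Fgf and Bmp ligands, zinc finger genes and solute carriers lie to the right of the blue line, and cytoplasmic ribosomal proteins reach 67.9% in grey and 2.38% in blue.

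The 95 zinc finger regions had summits in 71.4% ± 4.10 (SD, n = 5) in Ctrl, 38.4% ± 7.61 (SD, n = 6) in Case and 47.5% ± 7.63 (SD, n = 6) in Dapa. The Ctrl range of 67.4% to 75.8% did not overlap the Case range of 25.3% to 45.3% or the Dapa range of 38.9% to 55.8%. At an unadjusted p under 0.05, 16 of 95 were lower in db/db and 0 higher, against 8.13% and 1.19% of all regions tested. Zfp518b was used in 5 Ctrl mice with scores of 6.01 to 16.7, in Case 5 at 7.75 and in Dapa 9 at 3.75 (exact p = 0.00339, adjusted p = 0.187). Zfp770 was used in 5 Ctrl mice, no Case list and 2 Dapa mice at the same p, and Zfp423 in 5, 2 and 1 mice. Zfp967 was used in 5, 1 and 2 mice, but has 15 near-identical copies in the genome, so its reads may belong elsewhere.

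The 84 solute carrier regions gave 61.4% ± 4.09 (SD, n = 5), 43.7% ± 15.6 (SD, n = 6) and 46.6% ± 10.0 (SD, n = 6), with 8 lower and 3 higher of 84, beside 8.13% and 1.19% of all regions tested. Slc22a12, the urate transporter URAT1 of the proximal tubule, was used in 5 Ctrl mice with scores of 7.92, 6.04, 7.88, 5.03 and 10.1, in Case 1 at 8.31 and in Dapa 7 at 6.41 (exact p = 0.00339, adjusted p = 0.187). Slc10a3 and Slc6a8, a creatine transporter, were among the 8 at the unadjusted level as well, and both are on the X. The higher ones were Slc38a3, Slc25a22, a mitochondrial glutamate carrier (0 Ctrl, 2 Case and 5 Dapa mice), and Slc2a5, the fructose transporter GLUT5 (0, 3 and 4 mice). Slc2a5 and Slc25a22 each had exact p = 0.0441 and adjusted p = 0.466. Solute carriers thus held members of both directions.

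Hox genes, which set positional identity along the body axis, had 8 variable regions with 52.5% in Ctrl, 54.2% in Case and 41.7% in Dapa. In the pooled comparison 0 of the 8 were lower and 0 higher at the unadjusted level, beside 8.13% and 1.19% of all regions tested. Beside Hoxb9, Hoxa3 was used in 2, 5 and 5 mice of Ctrl, Case and Dapa, Hoxd9 in 4, 2 and 2, and Hoxa7 in 4, 3 and 2. Hox members therefore did not share a direction. The ciliary and centrosomal genes named Ift, Bbs, Cep or Dna had 9 variable regions with means of 68.9%, 35.2% and 55.6% in Ctrl, Case and Dapa, and the Case range of 0.00% to 77.8% overlapped the Ctrl range of 44.4% to 88.9%. Among these 9, Ift22 and Dnah7b, an axonemal dynein (5, 1 and 3 mice), were lower in the pooled comparison, beside 8.13% of all regions tested. Among integrins and laminins, Itga8, which is needed for kidney formation, was used in 5, 2 and 1 mice (exact p = 0.00905, adjusted p = 0.273), and so was Wnt9a, a Wnt ligand, at the same p. These were 1 of 9 integrin and laminin regions and 1 of 14 Wnt, Fgf and Bmp regions lower at the unadjusted level, beside 8.13% of all regions tested. Among 14 regions of cytochrome P450 genes, 2 were past the unadjusted level in the pooled comparison, beside 8.13% of all regions tested, and neither passed adjustment. Cyp4f14 was used in 5, 2 and 2 mice (exact p = 0.0294, adjusted p = 0.384) and Cyp2r1, a vitamin D 25-hydroxylase, in 5, 4 and 1 (exact p = 0.0441, adjusted p = 0.466).

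Of 40 genes of interferon response and antigen presentation, 14 (35.0%) had a variable promoter, beside 11.7% of all protein-coding genes, a difference that was not tested. Their 15 regions had summits in 34.7% ± 14.5 (SD, n = 5) in Ctrl, 53.3% ± 21.1 (SD, n = 6) in Case and 53.3% ± 12.6 (SD, n = 6) in Dapa. The ranges overlapped, and in the complete lists the means were 57.3%, 54.4% and 58.9%, so the gap was not there when low-ranked summits counted. At an unadjusted p under 0.05, 2 of 15 were higher in db/db and 0 lower, beside 1.19% and 8.13% of all regions tested. These were Ifit3 and Ifi35, both induced by interferon, each with 0 Ctrl, 3 Case and 4 Dapa mice (exact p = 0.0441, adjusted p = 0.466). Ifit3 had scores of 8.55, 5.20 and 13.5 in Case 1, 3 and 5, of 4.94, 6.29, 5.45 and 5.35 in Dapa 7, 8, 10 and 12, and of 4.91, below use, in Ctrl 3. It has 1 near-identical copy. The class II gene H2-Eb1 was used in 2, 5 and 5 mice at its start and in 0, 3 and 2 mice at −946 bp, and the RNA sensor gene Ddx58 in 4, 2 and 2.

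Genes of glucose handling and insulin action had variable promoters in 7 of 25 genes (28.0%), with 48.9%, 46.3% and 46.3% of 9 regions in Ctrl, Case and Dapa. At an unadjusted p under 0.05 by Fisher's exact test, 0 of the 9 were lower and 0 higher in db/db. Over all regions tested the shares were 8.13% and 1.19%. Slc5a2, which encodes the dapagliflozin target SGLT2, had a member at −73 bp from its start that was used in 3, 1 and 2 mice. Its scores were 8.95, 6.99 and 5.97 in Ctrl 1, 2 and 4, 6.11 in Case 5, and 4.73 and 4.71 in Dapa 9 and 12, with summits below use in Ctrl 3 at 5.20 and Dapa 11 at 4.62 (exact p = 0.280, adjusted p = 0.760). Over the 2 regions within 1 kb of a start of Slc5a2, 4 Ctrl, 1 Case and 3 Dapa mice had a used summit in either. Slc2a4, the insulin-responsive transporter GLUT4, was used in 2, 5 and 5 mice, and Hk1, a hexokinase, in 4, 3 and 2. Fatty acid oxidation genes had 4 of 22 variable and NF-kB and inflammation genes 5 of 25. Of their 4 and 6 regions, 0 were lower or higher in db/db at that level, beside 8.13% and 1.19% of all regions tested. Isg15 and Btla, genes of interest to the study, had no region within 1 kb of a start, and Csf2rb had a region in 1 list, so none of them was a member.

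Lists of cell type markers were looked up beside the kidney label. Of 10 proximal tubule genes 3 had a variable promoter and 3 a promoter in all 17 lists. These shares of 30.0% each stood beside 11.7% and 30.1% of all protein-coding genes. The loop and distal tubule list and the collecting duct list had 0 genes with a promoter in all 17 lists. Such a promoter was found for 1 of 7 podocyte genes and for 0 endothelial, stromal or leukocyte genes. These shares do not settle the label. The variable proximal tubule genes were Slc22a6, the organic anion transporter OAT1 (5, 4 and 3 mice), Slc5a2 and Slc13a3, a dicarboxylate transporter (1, 4 and 3 mice). Umod, the uromodulin gene of the thick ascending limb, was used in 2, 4 and 2 mice, and Aqp3, a water channel of the collecting duct, in 3, 5 and 4. Podocyte and endothelial lists had 0 of 7 genes each with a variable promoter, and leukocytes had Lcp1 alone of 15 (4, 5 and 3 mice). Stromal and mesangial genes had 2 of 7, Pdgfra and Col1a1. Housekeeping genes had 4 of 20 with a variable promoter, among them Hprt on the X (exact p = 0.0441, adjusted p = 0.466).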

How the data were processed

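Assay for transposase-accessible chromatin with sequencing was run on whole kidneys of 17 mice. The authors aligned reads to mm10 with Bowtie2, removed duplicates and blacklisted regions, shifted reads for the transposase and called peaks per mouse with MACS2, and the submitters' processing notes also name DiffBind and HOMER. The deposited files gave, per mouse, summit positions with a −log10 score, and whether it comes from a p-value or a q-value is not given in the sources used here. No reads or counts were used, so depth is unknown and no interval for counting error was set.

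The 29702 highest-scoring summits of each list, the length of the shortest, were widened by 250 bp on both sides, then merged across mice. Starts and gene types came from GENCODE M21 and sequence from RefSeq GRCm38.p6. Presence was compared per region by a 2-sided Fisher's exact test, and p-values were adjusted by Benjamini-Hochberg over all regions whose number of lists allows a p under 0.05. Mice are separate animals and the labels name no batch. Regions named were, per comparison, up to 4 members in each direction by p, difference and mean rank, up to 4 members of each gene family or list by pooled p, and Isg15, Btla, Csf2rb and Slc5a2. Members and lists were chosen with earlier results of these data known, and the X chromosome and CpG groups were looked at after seeing the data. Copies (identity of at least 95% over at least 80%) were searched with blastn 2.17.0. Python 3.11.15, numpy 2.4.6, pandas 2.3.3, scipy 1.17.1, pysam 0.24.0 and matplotlib 3.10.9 were used, and the test was tested on simulated data. Alternatives were the number of summits used, the extension, the distance to a start, the range of lists, the set of transcripts and leaving out mice. Some members are not reported here.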

Additional observations from a re-analysis of the deposited data

Results flagged for a closer look

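In 8 measures over 3 groups (24 groups screened), 2 values lay far from the rest of their group, and chance flags about 1 in 20 groups. Both belonged to Dapa 8. The percentage of CpG-rich members with a summit less that of CpG-poor members was 17.8 percentage points in Dapa 8. The median CpG ratio of the members with a summit was 0.746 in Dapa 8. The other 5 Dapa mice had median ratios of 0.667 to 0.688.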

How the results depend on the processing

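No member passed the adjusted threshold with another number of summits, another extension, adjustment over all regions of at least 2 lists, or mice left out. That count was not run for the other distance, range of lists and set of transcripts. With the 14851 highest-scoring summits of each list and the members kept, the Case minus Ctrl difference was −4.81 percentage points and Dapa minus Ctrl −4.48. Counts at an unadjusted p under 0.05 were then 1 higher and 78 lower for Case against Ctrl, 0 and 0 for Dapa against Case, 1 and 50 for Dapa against Ctrl, and 8 and 139 for db/db against Ctrl. With all summits, higher counts were 2, 6 and 13 for Case, Dapa and db/db against Ctrl. With an extension of 100 bp and members found anew, they were 14 for Case and 58 for db/db. Without Case 3 and Dapa 8, chosen after seeing the data, counts were 28 higher for Case against Ctrl, 41 higher and 19 lower for Dapa against Case, and 27 higher and 186 lower for Dapa against Ctrl. These counts rest on fewer mice, which changes the steps of the exact p. The X members differed by −35.7 percentage points with 14851 summits, and the difference between CpG-rich and CpG-poor members was −11.1. The number of members was between 1959 and 3923 under the alternatives. Of 32 named results, 17 stayed on their side of the unadjusted threshold with all summits and 9 with 14851, and 0 changed direction. The 32 include Rad51ap2, Pex5l, B630019K06Rik, Mtmr7 and Tmcc3, whose p-values carry no test. They also include Cfl1, which was not past the threshold to begin with. The causes were not tested, and the depth of the libraries, which limits what a missing summit shows, is unknown.

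Leaving out 1 mouse at a time gave differences of −23.0 to −18.4 for Case minus Ctrl, −17.2 to −14.1 for Dapa minus Ctrl and 2.54 to 7.16 for Dapa minus Case. Higher and lower counts were 12 to 28 and 181 to 252 for Case against Ctrl, 18 to 38 and 4 to 11 for Dapa against Case, 17 to 32 and 118 to 186 for Dapa against Ctrl, and 5 to 34 and 126 to 285 for db/db against Ctrl. Leaving out Case 5 gave the 252 lower members of Case against Ctrl, and leaving out any Ctrl mouse lowered the counts of db/db against Ctrl. With fewer mice the steps of the exact p and the regions that can be tested change by construction.

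Numbers 1 to 5 occur in both Ctrl and Case, but same-numbered mice did not deviate together (correlations of −0.06 to 0.02), and 0 Ctrl mice correlated best with their own number. With the replicate block, the paired difference was −21.3 percentage points, and 5 of 5 pairs were below 0 (−32.9 to −5.45). The exact McNemar test over the pairs gave 0 higher and 0 lower members, since its smallest p is 0.0625, reached by 48 members, 45 of them lower in Case.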
